A study of Mus musculus with 4 samples.

Results

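The RNAs described here are 10 long noncoding RNAs of the mouse. Of these, 8 are hosts of small nucleolar RNAs (Gas5, Snhg1, Snhg3, Snhg4, Snhg5, Snhg6, Snhg8 and Snhg12) and 2 are RNAs that stay in the nucleus (Malat1 and Neat1). They were taken by gene symbol from the 23699 entries of the deposited expression table, and each symbol had a single locus there. All 10 passed the filter on low values (at least 1 FPKM in at least 2 libraries), as did 10367 entries in all. FPKM is the number of sequenced fragments of an RNA, scaled for transcript length and library size. Total RNA was sequenced after removal of ribosomal RNA from B10+ cells (2 libraries), sorted as Cd1d high, Cd5+ and Il10+, and from B10- cells (2 libraries), sorted as B cells without Cd1d, Cd5 or Il10. Both subsets came from spleens of C57BL/6 mice, and both carried the same stimulation: an anti-Cd40 antibody for 48 h, with LPS, PMA and ionomycin added for the final 5 h. No unstimulated B cells were in the comparison, and the age, sex and number of mice behind a culture were details not given in the sources used here. Libraries were paired, because culture 1 yielded 1 B10+ and 1 B10- library and culture 2 the other pair. The comparison asks how the host RNAs, Malat1 and Neat1 differ between B cells that make Il10 and B cells of the same culture that do not.

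Small nucleolar RNAs (snoRNAs) guide the chemical modification of ribosomal RNA: C/D box snoRNAs direct ribose methylation and H/ACA box snoRNAs direct pseudouridylation. In vertebrates most of them are cut out of the introns of a host transcript, and the spliced exons of a host such as Gas5 encode no conserved protein and are removed by nonsense-mediated decay once ribosomes read them. Many host transcripts begin with a run of pyrimidines, the terminal oligopyrimidine start that ribosomal protein mRNAs share, which ties their translation to growth signalling through mTOR. Malat1 is a long unspliced RNA of nuclear speckles, the sites where splicing factors gather, and Neat1 is the RNA scaffold of paraspeckles. Lymphocytes that are driven to divide enlarge their nucleoli and make more ribosomes, and Gas5 was named for its accumulation in cells whose growth is arrested.

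The starts of the hosts are shown first, because a pyrimidine run there is the sequence feature by which this family is best known. Each window runs 5′ to 3′, holds 20 bases before and 20 bases after an annotated RefSeq start (GRCm38.p6), and is in lower case, with the unbroken run of C or T that covers the start in capitals. The windows are Gas5 (chr1:161035146-161035185, plus strand), Snhg8 (chr3:123508317-123508356, minus strand), Snhg12 (chr4:132308658-132308697, plus strand), Snhg1 (chr19:8723467-8723506, plus strand), Snhg3 (chr4:132353667-132353706, minus strand), Snhg5 (chr9:88522878-88522917, minus strand) and, for contrast, Malat1 (chr19:5802653-5802692, minus strand).
Gas5: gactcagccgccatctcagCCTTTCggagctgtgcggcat
Snhg8: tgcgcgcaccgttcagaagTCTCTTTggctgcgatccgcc
Snhg12: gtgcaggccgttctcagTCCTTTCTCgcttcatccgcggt
Snhg1: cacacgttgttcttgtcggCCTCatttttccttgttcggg
Snhg3: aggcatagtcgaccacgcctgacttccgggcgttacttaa
Snhg5: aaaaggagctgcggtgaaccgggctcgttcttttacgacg
Malat1: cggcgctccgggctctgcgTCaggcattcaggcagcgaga
The run was 6 bases long at this Gas5 start, 7 at Snhg8 and 9 at Snhg12. It was 4 bases long at Snhg1, 2 at Malat1 and 0 at the annotated starts of Snhg3 and Snhg5. Gas5 has a further annotated start (chr1:161034581-161034620) with a run of 0. A run of at least 5 bases was present at 3 of these 8 starts of 7 genes, and at 10.1% of all 32851 RefSeq starts. At protein-coding snoRNA host genes, many of them ribosomal protein genes, it was present at 2 of 21 starts (9.5%). The run may take in bases before the start. A C at the start with 4 pyrimidines after it was found at Gas5 and Snhg8 but not at Snhg12. Snhg4, Snhg6 and Neat1 are given by name only. A run is a description of the letters at an annotated start and does not show where transcription began in these cells.

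The deposited table also holds 11 small RNA entries whose loci lie inside 6 of the hosts, and 5 of these entries had values above 0. The sequences of the 4 that can be printed are given here, because these snoRNAs are set beside their hosts further on. They come from GENCODE M21 on GRCm38 and run 5′ to 3′, with the D box (CTGA) of the C/D box snoRNA and the ACA of the H/ACA box snoRNAs in capitals. Snord22 lies in Snhg1 (chr19:8725866-8725991, plus strand), Snora24 in Snhg8 (chr3:123507937-123508066, minus strand), and Snora16a (chr4:132309465-132309600, plus strand) and Snora44 (chr4:132309941-132310069, plus strand) in Snhg12.
Snord22: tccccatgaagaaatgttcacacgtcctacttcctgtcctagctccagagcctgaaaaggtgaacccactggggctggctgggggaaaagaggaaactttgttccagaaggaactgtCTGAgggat
Snora24: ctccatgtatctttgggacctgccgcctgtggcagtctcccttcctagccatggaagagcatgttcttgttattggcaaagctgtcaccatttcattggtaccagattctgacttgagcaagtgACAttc
Snora16a: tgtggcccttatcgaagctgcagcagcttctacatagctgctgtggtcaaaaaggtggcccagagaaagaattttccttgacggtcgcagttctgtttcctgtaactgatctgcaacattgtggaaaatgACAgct
Snora44: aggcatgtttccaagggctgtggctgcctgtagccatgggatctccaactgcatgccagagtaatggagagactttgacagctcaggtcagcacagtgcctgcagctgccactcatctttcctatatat
The ACA stands 3 bases before the end in Snora24 and Snora16a, and the D box of Snord22 is followed by 5 bases. For Snora44 the GENCODE model of 129 bases is longer than the deposited entry of 117 bp, and no ACA stands 3 bases before its end.

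The 10 RNAs spanned a wide range of abundance. Malat1 (chromosome 19, 5795690 to 5802671, mm9) was at 601 and 2201 FPKM in B10+ libraries (culture 1, then culture 2), against 630 and 2046 FPKM in B10- libraries. Snhg1 (chromosome 19, 8797977 to 8800816) was at 643 and 328 FPKM in B10+ libraries, against 574 and 395 FPKM in B10- libraries. Snhg6 (chromosome 1, 9932106 to 9934199) was at 394 and 159 FPKM in B10+ libraries, against 355 and 177 FPKM in B10- libraries. All 3 varied more between the cultures than between the subsets. By mean level over the 4 libraries Malat1 ranked 70, Snhg1 163 and Snhg6 314 among the 23699 entries. Gas5 (chromosome 1, 162965297 to 162968668), the host of a large set of C/D box snoRNAs, ranked 344. It was at 278 and 204 FPKM in B10+ libraries, against 247 and 277 FPKM in B10- libraries.

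The next 5 hosts lay close together, between 44.5 and 153 FPKM in every library. Snhg5 (chromosome 9, 88415891 to 88417735) averaged 111 ± 58.9 FPKM in B10+ and 91.5 ± 19.6 FPKM in B10- libraries (SD, n = 2 each). Snhg12 (chromosome 4, 131864593 to 131866939) averaged 90.3 ± 24.3 FPKM in B10+ and 112 ± 25.9 FPKM in B10- libraries (SD, n = 2 each). Snhg8 (chromosome 3, 123210470 to 123211254), a short host of 785 bp, averaged 78.2 ± 37.9 FPKM in B10+ and 78.4 ± 22.8 FPKM in B10- libraries (SD, n = 2 each). Snhg8 was below both Snhg5 and Snhg12 in every library. The order of Snhg5 and Snhg12 was not settled, since Snhg5 was above Snhg12 only in the B10+ library of culture 1. Snhg3 (chromosome 4, 131907848 to 131909601) had the lowest mean of the hosts, averaging 56.9 ± 17.5 FPKM in B10+ and 56.2 ± 16.5 FPKM in B10- libraries (SD, n = 2 each). Neat1 (chromosome 19, 5842302 to 5845478) was far below the others, at 8.48 and 6.44 FPKM in B10+ libraries, against 8.26 and 6.71 FPKM in B10- libraries. It ranked 6934 among all entries. The deposited Neat1 locus covers 3177 bp, where the RefSeq gene covers 20773 bp, so these values are for the first stretch of the gene, which the short and the long Neat1 transcripts share.

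**Figure D1:**
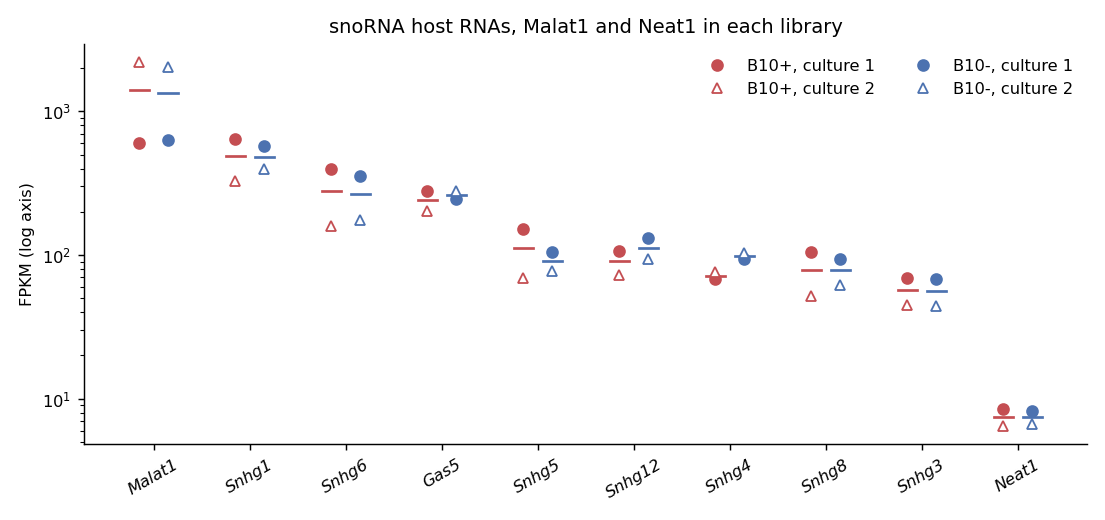
FPKM (log axis) of the 8 snoRNA host RNAs, Malat1 and Neat1 in each library, ordered by mean level; filled circles are culture 1, open triangles culture 2, red B10+ and blue B10-, and short bars are the means of 2 libraries. The distance between circle and triangle exceeds the distance between red and blue for most RNAs, Malat1 is higher in culture 2 and Snhg1 and Snhg6 are higher in culture 1, and for Snhg4 alone do the red and blue values not overlap.

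The depth behind these values could be estimated, because the FPKM of single-exon receptor genes stepped in near whole fragments. The estimate was 30.1 and 23.4 M fragments for the B10+ libraries (culture 1, then culture 2), against 26.1 and 34.8 M for the B10- libraries. It rests on 576 and 43 receptor entries above 0 in the B10+ libraries, against 95 and 77 in the B10- libraries, and so is least sure for B10+ cells of culture 2. The B10+ library of culture 1 stood apart in having 19.4% of all entries at 0, where the B10+ library of culture 2 had 36.2% and the B10- libraries 34.5% and 37.3%. Fragment numbers at the estimated depth assume that the whole deposited locus of Malat1, and of Neat1, is 1 exon. Under that assumption Malat1 was covered by 123512 and 351707 fragments in B10+ cells and by 112139 and 487015 in B10- cells. Neat1 was covered by 773 and 456 fragments in B10+ cells, against 652 and 709 in B10- cells, a counting error of 3.60% to 4.68%. For 7 hosts the shortest annotated transcript gives a low estimate, from 191 fragments for Snhg3 in B10+ cells of culture 2 to 3175 for Snhg1 in B10+ cells of culture 1. Counting error on those values is 1.77% to 7.24%, below the spread between cultures of these 7 hosts in B10+ cells. The B cell markers Ms4a1, Cd79a, Cd79b, Cd22, Pax5, Ebf1 and Cd74 were above 0 in every library, but their levels were not uniform. Ms4a1, Cd79b and Cd22 were lower in culture 2 in both subsets, while Pax5, Ebf1 and Cd74 were higher. Cd79b was at 116 and 11.5 FPKM in B10+ libraries, against 105 and 2.34 FPKM in B10- libraries.

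Between the subsets, no host RNA and neither nuclear RNA was called different. With limma and no term for the culture, 0 of the 10 passed the adjusted threshold of 0.05, and 0 of 10367 entries did (0%). At an unadjusted p under 0.05, 118 entries (1.14%) passed in that fit, none of them among the 10 RNAs. When the culture entered the model as a replicate block, which uses the pairing of the libraries, 89 entries (0.858%) passed, and again 0 of the 10. The median size of the 10 log2 differences was 0.06, against 0.20 over all tested entries. All 10 of the 95% intervals from the blocked fit lay inside a 2-fold change in either direction, the outermost bounds being a ratio of 0.581 for Snhg4 and 1.68 for Snhg5. That fit has few residual degrees of freedom, so its intervals draw mainly on the spread estimated over all entries. With 2 libraries a group, an exact permutation test cannot reach 0.05. The RNA is from bulk sorted cells, where fewer cells that express an RNA and less of it per cell cannot be told apart.

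Snhg4 stood out from the other hosts in the libraries themselves. This host of the H/ACA box snoRNA Snora74a (chromosome 18, 35713064 to 35717970) was at 68.1 and 76.0 FPKM in B10+ libraries (culture 1, then culture 2), against 93.3 and 104 FPKM in B10- libraries. Both B10+ libraries lay below both B10- libraries, and Snhg4 was the 1 RNA among the 10 whose groups did not overlap. Groups that do not overlap were found for 14.1% of all tested entries, with B10+ below B10- for 7.47% and above for 6.6%, so 1 of 10 is near the background. The ratio of B10+ to B10- was 0.729 in culture 1 and 0.733 in culture 2, a log2 difference of -0.45 ± 0.0044 (SD between the 2 cultures). Its 95% interval with the block was -0.78 to -0.11. Its limma p with the block was 0.0204 unadjusted and 0.2501 adjusted over all entries, and 15.2% of entries were under 0.05 unadjusted in that fit. Of all tested entries, 81.7% had a smaller difference than Snhg4.

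Snhg12 was the other host with lower values in B10+ cells of both cultures. Its locus holds snoRNAs of both classes, and it was at 107.5 and 73.1 FPKM in B10+ libraries, against 131 and 94.0 FPKM in B10- libraries. The groups overlapped, because the B10+ library of culture 1 lay above the B10- library of culture 2. The ratio of B10+ to B10- was 0.823 in culture 1 and 0.778 in culture 2, a log2 difference of -0.32 ± 0.06 (SD between the 2 cultures), with a blocked limma adjusted p of 0.351 and a 95% interval of -0.66 to 0.02. Snhg12 and Snhg3 are neighbours on chromosome 4, on either side of Trnau1ap and Rcc1. The level of Snhg12 relative to Snhg3 was 1.55 and 1.64 in B10+ cells, against 1.92 and 2.11 in B10- cells. Snhg3, the host of H/ACA box snoRNAs, was itself nearly level between the subsets, at 69.2 and 44.6 FPKM in B10+ libraries and 67.9 and 44.5 FPKM in B10- libraries, a log2 difference of 0.01 ± 0.02 (SD between the 2 cultures). Its sign turned when libraries were scaled by quantiles or by their medians.

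The remaining 5 hosts went one way in culture 1 and the other way in culture 2. Gas5, Snhg1, Snhg5, Snhg6 and Snhg8 were all higher in B10+ cells of culture 1 and lower in B10+ cells of culture 2. Snhg5, a host of C/D box snoRNAs, differed most: it was at 153 and 69.4 FPKM in B10+ libraries, against 105 and 77.7 FPKM in B10- libraries, a ratio of 1.45 in culture 1 and 0.894 in culture 2. The ratios of B10+ to B10- for Gas5 were 1.13 and 0.736, and those for Snhg1 were 1.12 and 0.830. Snhg6, whose locus holds a C/D box snoRNA, had ratios of 1.11 and 0.902. Snhg8 was at 105 and 51.5 FPKM in B10+ libraries, against 94.6 and 62.3 FPKM in B10- libraries, a ratio of 1.11 and 0.826. All 5 had groups that overlap, and an SD over the cultures (0.21 to 0.49 on the log2 scale) above the size of their mean difference. Their blocked limma adjusted p ran from 0.694 for Snhg5 to 0.997 for Snhg6.

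Counted over the family, 6 of the 8 hosts were higher in B10+ cells in culture 1 and 7 of the 8 were lower in culture 2. Over all 10367 tested entries, 5076 were higher in B10+ cells in culture 1 and 4909 were lower in culture 2. The host count in culture 1 depended on the scaling: after quantile normalization 2 hosts were higher there and 8 were lower in culture 2, whereas median scaling left 6 and 8. Over all tested entries these counts were 4664 and 6258 after quantile normalization, and 5192 and 5366 after median scaling. The summed level of the 8 hosts was 1819 and 1005 FPKM in B10+ libraries, against 1668 and 1231 FPKM in B10- libraries, so the sums also crossed between cultures. Same-direction differences in both cultures were found for 3 of the 10 RNAs (Snhg4, Snhg12 and Snhg3), against 65.2% of all tested entries. The count was 7 of 10 after quantile normalization, against 65.3% of entries, and 2 after median scaling.

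Malat1 and Neat1 were close to level between the subsets on the deposited scale. Malat1 had a ratio of B10+ to B10- of 0.953 in culture 1 and 1.08 in culture 2, a log2 difference of 0.02 ± 0.12 (SD between the 2 cultures) and a 95% interval of -0.43 to 0.46. Its value turned to -0.34 after quantile normalization, which ties the most abundant entries of the libraries to common values. Neat1 had ratios of 1.03 and 0.960, a log2 difference of -0.01 ± 0.06 (SD between the 2 cultures) and a 95% interval of -0.46 to 0.44. Their blocked limma adjusted p was 0.968 and 0.984. Both intervals lay within a 2-fold difference, which does not show that the levels were equal.

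**Figure D2:**
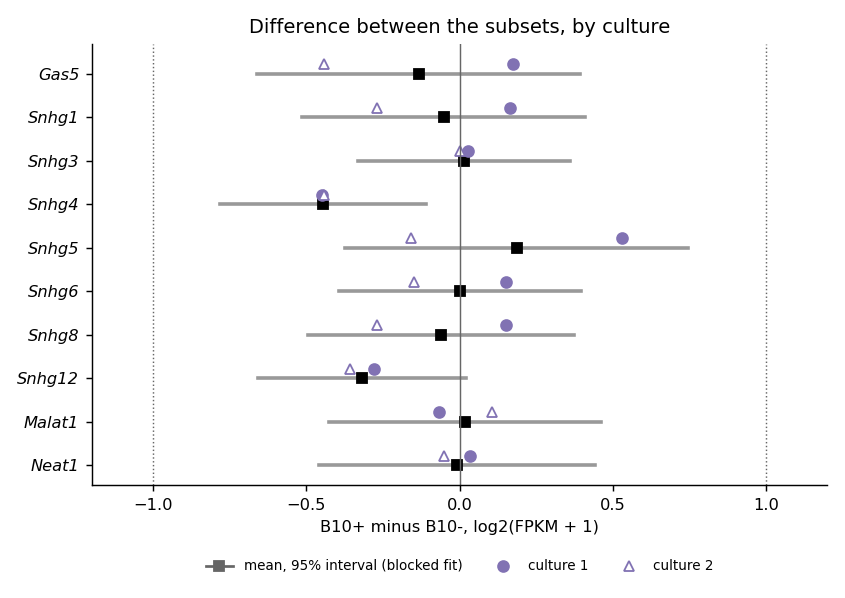
Difference between B10+ and B10- cells, B10+ minus B10- in log2(FPKM + 1), for each RNA; circles are culture 1, open triangles culture 2, black squares their mean, grey lines the 95% interval of the blocked limma fit, and dotted lines mark a 2-fold change. The points of Snhg4 coincide at -0.45 and those of Snhg12 lie on the same side of 0, while Gas5, Snhg1, Snhg5, Snhg6, Snhg8, Malat1 and Neat1 have a point on each side.

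Most of the small RNAs inside the hosts could not be read from this table. Of the 11 entries inside host loci, 6 were listed at 0 in all 4 libraries: Snord47 and Mir5117 in Gas5, Mir1949 in Snhg4, Snord87 in Snhg6, and Snora61 and Snord99 in Snhg12. This goes with their length, since all 537 entries under 91 bp were at 0 in every library, 75 snoRNA and scaRNA entries among them, while 46 of the 48 snoRNA and scaRNA entries of 91 bp or more were above 0 in some library. Mir5117 spans 91 bp and so stands at that limit. A value of 0 for a short snoRNA here therefore says nothing about its presence. Snhg3, Snhg5, Malat1 and Neat1 had no entry inside their locus.

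The FPKM of short entries also depend steeply on length, so the values of the longer snoRNAs cannot be set against the level of the host. They are given by library below, but the scale of such values may itself differ between libraries. Among entries of 99 bp the smallest value above 0 was 70982 and 111173 FPKM in B10+ libraries, against 262557 and 448769 FPKM in B10- libraries. At 121 bp, for comparison, it was 873 and 28.2 FPKM in B10+ libraries, against 24.7 and 14.2 FPKM in B10- libraries. How much a fragment is worth in each library at these lengths was not recovered, and its part in the differences that follow was not tested.

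Snora74a, an H/ACA box snoRNA inside Snhg4, was at 1431 and 15389 FPKM in B10+ libraries, against 960 and 10080 FPKM in B10- libraries. It was higher in B10+ cells by a ratio of 1.49 in culture 1 and 1.53 in culture 2, while Snhg4 itself had ratios of 0.729 and 0.733. Its log2 difference was 0.59 ± 0.03 (SD between the 2 cultures), with a blocked limma adjusted p of 0.325. Snora44 in Snhg12 showed the same arrangement, with 3749 and 17558 FPKM in B10+ libraries, against 2204 and 11707 FPKM in B10- libraries. Its ratios of B10+ to B10- were 1.70 and 1.5, where Snhg12 had 0.823 and 0.778, and its log2 difference was 0.68 ± 0.13 (SD between the 2 cultures; blocked limma adjusted p = 0.340). In both pairs, then, the host had lower and the snoRNA higher values in B10+ cells of each culture, and none of the 4 RNAs passed the test. Median scaling kept these directions, but after quantile normalization Snora74a and Snora44 were lower in B10+ cells of culture 2, with log2 differences of -0.44 and -0.63.

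The other 3 snoRNAs were less steady. Snora24 in Snhg8 was at 12926 and 33832 FPKM in B10+ libraries, against 11446 and 5274 FPKM in B10- libraries. Its ratio of B10+ to B10- was 1.13 in culture 1 and 6.42 in culture 2, and with that spread the log2 difference of 1.43 ± 1.77 (SD between the 2 cultures) did not pass (blocked limma adjusted p = 0.409). Snora16a in Snhg12 had ratios of 0.946 and 2.52 (blocked limma adjusted p = 0.519), so on the deposited scale the 2 snoRNAs of Snhg12 differed in direction in culture 1. Snord22, the C/D box snoRNA of Snhg1, was at 90632 and 566570 FPKM in B10+ libraries, against 109060 and 547812 FPKM in B10- libraries. Its log2 difference was -0.11 ± 0.22 (SD between the 2 cultures; blocked limma adjusted p = 0.974). After quantile normalization the culture 1 differences of Snora16a and Snord22 turned to 0.52 and 0.57, on the same side as that of Snora44 (1.04). Of all 45 tested snoRNA and scaRNA entries, 15 had higher and 8 had lower values in B10+ cells of both cultures, against 33.4% and 31.8% of all tested entries, and 0 passed with or without the block. After quantile normalization the counts were 8 higher and 13 lower, against 2587 and 4180 of the 10367 tested entries.

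**Figure D3:**
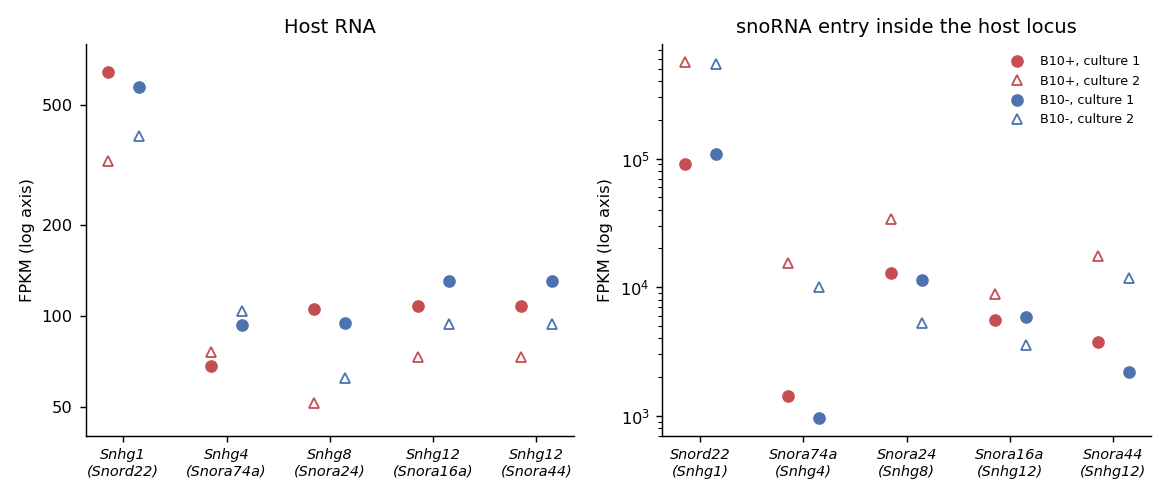
FPKM (log axes of different range) of the host RNAs Snhg1, Snhg4, Snhg8 and Snhg12 (left, Snhg12 drawn for each of its snoRNAs) and of the snoRNA entries inside them (right); circles are culture 1, open triangles culture 2, red B10+ and blue B10-. Within each culture red lies below blue for Snhg4 and Snhg12 and above blue for Snora74a and Snora44.

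The levels of most of these RNAs lay further apart between cultures than between subsets, most of all those of Malat1. Malat1 in culture 2 was 3.66 times its culture 1 level in B10+ cells and 3.25 times in B10- cells, log2 differences of 1.87 and 1.70. It is the 1 RNA among the 10 that was over 2-fold higher in culture 2. Snhg6 had the lowest ratios of culture 2 to culture 1, at 0.404 in B10+ and 0.497 in B10- cells. The ratios were 0.490 and 0.658 for Snhg8, 0.509 and 0.688 for Snhg1 and 0.455 and 0.737 for Snhg5, in B10+ and B10- cells. Snhg3 and Snhg12 were lower in culture 2 as well, with ratios of 0.643 and 0.655 for Snhg3 and 0.680 and 0.719 for Snhg12. Snhg4 alone among the hosts was higher in culture 2 in both subsets, with ratios of 1.12 in B10+ and 1.11 in B10- cells. Gas5 had ratios of 0.732 and 1.12, so its direction differed between the subsets, and after quantile normalization it too was higher in culture 2 in both.

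Lower values in culture 2 were common over the table, which bears on how these ratios read. The median log2 difference of culture 2 minus culture 1 over all tested entries was -0.28 in B10+ and -0.32 in B10- cells, and 56.3% of entries were lower in culture 2 in both subsets. For the 8 hosts it was -0.80 in B10+ and -0.50 in B10- cells, with 6 lower and 1 higher in both subsets. Among entries with a mean of at least 50 FPKM, the range in which the hosts lie, the medians were -0.50 and -0.47 and 64.0% were lower in culture 2. Both scalings removed the shift of all entries, and under each of them the same 6 hosts stayed lower in culture 2 and Malat1 stayed higher, by 1.93 to 2.35 on the log2 scale. Neat1, at -0.35 and -0.26 before scaling, had no common direction after either scaling. Each culture is a single culture, so the difference between cultures has no replicate and no test.

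In contrast to most hosts, most snoRNA entries had higher values in culture 2. Of the 45 tested snoRNA and scaRNA entries, 34 were higher and 1 lower in culture 2 in both subsets, with medians of 2.64 in B10+ and 1.87 in B10- cells on the log2 scale. After quantile normalization 30 were higher and 10 lower, against 4468 and 4628 of all tested entries. The worth of a fragment in short entries was not recovered for each library, and its part in these culture differences was not tested. Snora74a was 10.8 and 10.5 times as high in culture 2 in B10+ and B10- cells, and Snord22 6.25 and 5.02 times, while Snhg1 was lower there. Snora24 was 2.62 times as high in culture 2 in B10+ cells but at 0.461 of the culture 1 level in B10- cells. The level of Malat1 relative to the summed hosts was 0.330 and 2.19 in B10+ cells of cultures 1 and 2, against 0.378 and 1.66 in B10- cells. The summed level of 8 macrophage and monocyte markers was 18.9 and 156 FPKM in B10+ libraries, against 15.6 and 101 FPKM in B10- libraries, and 1 of the 8 was at 0 in each library. Mpeg1 made up most of it in culture 2, at 9.87 and 149 FPKM in B10+ libraries, against 7.02 and 95.6 FPKM in B10- libraries. Of the 3 tested markers 1 (Mpeg1) was higher and 2 (Cd68 and Emr1) were lower in culture 2 in both subsets. The part of such cells in the culture differences was not tested.

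**Figure D4:**
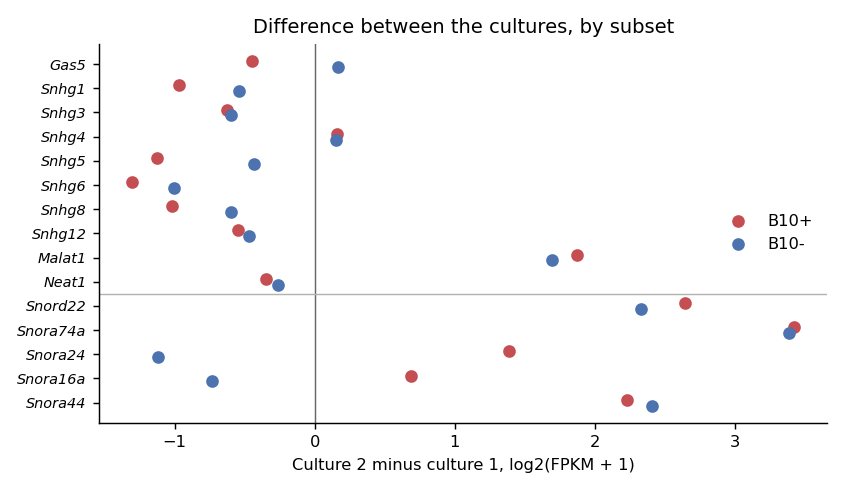
Difference between the cultures, culture 2 minus culture 1 in log2(FPKM + 1), in B10+ (red) and B10- cells (blue), for the 10 long RNAs above the grey line and for the 5 snoRNAs inside host loci below it. Malat1 lies near 1.87 and 1.70, 6 hosts lie below 0 in both subsets, and Snord22, Snora74a and Snora44 lie above 2 in both.

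Genes of the same pathways were read from lists of known members, beside the same counts over all tested entries (33.4% higher and 31.8% lower in B10+ cells of both cultures). Of 10 other long noncoding snoRNA hosts that were tested, 2 had higher and 4 had lower values in B10+ cells of both cultures, and the median log2 difference was -0.04. Snhg15, the most abundant of them, was at 400 and 190 FPKM in B10+ libraries, against 423 and 225 FPKM in B10- libraries. Zfas1, the host of C/D box snoRNAs, was at 226 and 94.8 FPKM in B10+ libraries, against 236 and 113 FPKM in B10- libraries. Both were lower in B10+ cells of each culture by less than their difference between the cultures. Snhg16, a further host, had 53.5 and 60.6 FPKM in B10+ libraries, against 65.6 and 71.97 FPKM in B10- libraries. Like Snhg4, Snhg16 and Snhg17 had groups that did not overlap and slightly higher values in culture 2. Over all tested entries 14.1% had groups that did not overlap. None of the 10 passed with or without the block.

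Protein-coding hosts, which carry snoRNAs in the introns of genes for ribosomal proteins and translation factors, gave as median log2 difference -0.16, with 1 higher and 12 lower in B10+ cells of both cultures of 30 tested. Gnb2l1, which encodes the ribosomal scaffold Rack1, was at 4208 and 1878 FPKM in B10+ libraries, against 4145 and 1975 FPKM in B10- libraries. Rps20, a ribosomal protein gene, was at 3218 and 1235 FPKM in B10+ libraries, against 2489 and 1505 FPKM in B10- libraries, and so differed in direction between the cultures. Between the cultures 26 of the 30 were lower in culture 2 in both subsets, the direction of most long noncoding hosts, and this count became 15 after quantile normalization and 18 after median scaling. None of the 30 was called between the subsets.

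Proteins that bind and assemble snoRNAs had lower values in B10+ cells of both cultures for 11 of 18 genes and higher values for 1, and the median log2 difference was -0.12. The counts of 11 and 1 were the same under both scalings. Over all 10367 tested entries 3297 were lower in both cultures on the deposited scale. That count was 4180 after quantile normalization and 3482 after median scaling. Nop56, Nop58 and Dkc1 are also among the protein-coding hosts above, so the 2 lists are not separate. Nop56, a core protein of C/D box particles, was at 360 and 349 FPKM in B10+ libraries, against 462 and 416 FPKM in B10- libraries (blocked limma adjusted p = 0.384). Nop58, its partner, was at 421 and 352 FPKM in B10+ libraries, against 445 and 385 FPKM in B10- libraries, and Nop10, of H/ACA box particles, at 621 and 294 FPKM in B10+ libraries, against 607 and 314 FPKM in B10- libraries. Nop56 had groups that did not overlap, as did Nolc1 and Shq1 of this list and 14.1% of all tested entries, while those of Nop58 and Nop10 overlapped. None of the 18 passed with or without the block. Of 15 nonsense-mediated decay factors, 4 had higher and 7 had lower values in B10+ cells of both cultures, the median being -0.10, and 0 were called. Magoh, a core protein of the exon junction complex, was at 304 and 120.5 FPKM in B10+ libraries, against 250.2 and 146 FPKM in B10- libraries.

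The protein partners of the nuclear RNAs were also not called. Of 12 paraspeckle proteins 1 was higher and 6 were lower in B10+ cells of both cultures, and the median log2 difference was -0.14. Hnrnpk was at 241 and 169 FPKM in B10+ libraries, against 282 and 195 FPKM in B10- libraries, and Sfpq, a core paraspeckle protein, at 177 and 227 FPKM in B10+ libraries, against 206 and 234 FPKM in B10- libraries. Of 10 nuclear speckle proteins 1 was higher and 3 were lower, with a median of -0.08. Srsf2, a splicing factor of the speckles, was at 181 and 390 FPKM in B10+ libraries, against 250 and 415 FPKM in B10- libraries. Like Malat1, Srsf2 was higher in culture 2 than in culture 1 in both subsets. Of the 10 speckle proteins, 4 were higher and 4 were lower in culture 2 in both subsets, so the list as a whole had no common direction. The summed level of T cell markers was higher in B10+ cells, at 33.4 and 25.4 FPKM, against 16.0 and 7.54 FPKM in B10- libraries. Most of each sum came from Cd2 and Lck, the 2 tested markers. The other markers did not pass the filter on low values. Their highest value was 3.23 FPKM, for Cd8b1 in B10+ cells of culture 2. Cd3d was at 0.253 and 0.253 FPKM in B10+ libraries, against 0.130 and 0.193 FPKM in B10- libraries. Cd2 was higher in B10+ cells of culture 1 (20.3 against 5.24 FPKM) and culture 2 (10.3 against 2.93 FPKM). Lck was lower in B10+ cells of culture 1 (7.93 against 10.1 FPKM) and higher in those of culture 2 (6.57 against 3.42 FPKM). Of the 12 T cell markers 0 and 1 were at 0 in the B10+ libraries, against 5 and 5 in the B10- libraries. Over all entries the shares at 0 were 19.4% and 36.2% in B10+ libraries, and 34.5% and 37.3% in B10- libraries. The part of T cells in the values above was not tested.

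Other long noncoding RNAs gave a comparison outside the host family. All 5 tested ones (Tug1, Pvt1, Kcnq1ot1, Mir17hg and Dleu2) were lower in B10+ cells of both cultures, and the median log2 difference was -0.26. Of the 5, 0 were called. After median scaling 4 of the 5 were lower in both. Mir17hg, the host of a microRNA cluster active in dividing lymphocytes, was at 101 and 161 FPKM in B10+ libraries, against 117 and 200 FPKM in B10- libraries, and Tug1 at 36.3 and 73.0 FPKM in B10+ libraries, against 42.9 and 81.0 FPKM in B10- libraries. Pvt1 was at 14.9 and 23.5 FPKM in B10+ libraries, against 18.5 and 29.6 FPKM in B10- libraries. Of these 5, 4 were higher in culture 2 in both subsets, as Malat1 was, and 1, Dleu2, was lower. Rmrp and Rpph1, the abundant RNAs of the RNase MRP and RNase P enzymes, were higher in B10+ cells of both cultures without being called, with log2 differences of 0.61 and 0.95. Vaultrc5, the vault RNA, was at 45.7 and 1177 FPKM in B10+ libraries, against 28.2 and 918 FPKM in B10- libraries. After quantile normalization 1 of these 3 small RNAs was higher in B10+ cells of both cultures.

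The genes next to the RNAs were read beside them. Trnau1ap, which lies 739 bp from Snhg12 and encodes a factor of selenocysteine incorporation, was at 64.0 and 50.6 FPKM in B10+ libraries, against 117 and 61.7 FPKM in B10- libraries. Matr3, a nuclear matrix protein gene beside Snhg4, was at 228 and 158 FPKM in B10+ libraries, against 265 and 191 FPKM in B10- libraries. Trnau1ap and Matr3 were lower in B10+ cells of each culture, as Snhg12 and Snhg4 were. Between the cultures Matr3 was lower in culture 2 where Snhg4 was higher. Sil1, on the other side of Snhg4, had ratios of B10+ to B10- of 1.35 in culture 1 and 0.840 in culture 2. Zbtb37 beside Gas5, Wdr74 beside Snhg1 and Prss12 beside Snhg8 were lower in B10+ cells of each culture. Gas5, Snhg1 and Snhg8 themselves changed direction between the cultures. Rcc1, beside Snhg3, was at 92.7 and 71.7 FPKM in B10+ libraries, against 76.8 and 61.4 FPKM in B10- libraries, whereas Snhg3 was nearly level. Slc3a2, 118 bp from Snhg1, was at 113 and 107 FPKM in B10+ libraries, against 99.3 and 117 FPKM in B10- libraries, and had the same change of direction between cultures as Snhg1. Of 8 tested genes around Malat1 and Neat1, 7 were lower in culture 2 in both subsets. Whether reads that overlap neighbours were assigned by strand is not given in the sources used here.

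By the shape of the 4 values, the genes most like the RNAs were found by the Euclidean distance between centred log2 values over 4 libraries, among 7745 other entries. The median profile of the 8 hosts was matched most closely by 1110059G10Rik (distance 0.0292), Sap30bp (0.0313), Zfp617 (0.0362), Wdr85 (0.0369) and Mrps9 (0.0397). Malat1 was matched by Cherp (distance 0.0708), Sf3a2 (0.0898), Zbtb7a (0.106), Asb13 (0.107) and Foxp4 (0.111). Cherp, for example, was at 5.81 and 25.1 FPKM in B10+ libraries, against 6.65 and 22.9 FPKM in B10- libraries. Cherp and Sf3a2 encode splicing proteins. Neat1 was matched by Bcdin3d (distance 0.0197), Cbfb (0.0261), Ube2j2 (0.0283), Rps19bp1 (0.0309) and Hsp90aa1 (0.0317). The 4 libraries come from 2 cultures, so the difference between cultures enters this likeness.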

How the data were processed

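RNA of 4 libraries was analysed, 2 of B10+ and 2 of B10- cells. The authors deposited 1 table of FPKM values, per the labels, with a symbol and an mm9 locus for each entry. Per the submitters' processing notes, TopHat 1.3.2, Cufflinks 2.1.1, bcl2fastq 1.8.4 and DESeq were used, with no role or order given. The annotation, the strand setting and how reads with multiple matches were treated remain details not given in the sources used here. Starts in the table count from 0, so 1 was added before printing. Sequences come from RefSeq and GENCODE on GRCm38, a different build, by symbol.

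Values were tested as log2(FPKM + 1), a scale that understates the change of low entries, with limma-trend (limma 3.58.1, R 4.3.3). Entries needed at least 1 FPKM in at least 2 libraries, and p-values were two-sided, adjusted by Benjamini and Hochberg over all 10367 tested entries. The fit had no term for culture, and a blocked fit, with culture as the replicate block, was run beside it, because the labels pair the libraries by culture. Log2 values correlated at 0.965 and 0.947 within cultures, against 0.840 between the B10+ and 0.836 between the B10- libraries. The replicates of a subset are 2 separate cultures. The test was checked on simulated data.

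Depth was estimated from 1221 single-exon receptor entries. Those above 0, 43 to 576 in a library, were whole multiples of a common step, within 0.03 fragments, for 81.4% to 87.0% of them once 146 to 149 bases were subtracted from their length. This was not extended to other entries, whose lengths in use are not known, so no count test was run. Counting error covers sampling of fragments only. The 10 RNAs and the gene lists were chosen with earlier results of these data known. For each list the 3 members of highest mean level could be named with values, members behind a count of 5 or fewer and cell type markers by name, and some results are not reported here. The 2 scalings tried were quantile normalization and division by the median ratio to the geometric mean.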

Additional observations from a re-analysis of the deposited data

How the results depend on the processing

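Of the 10 RNAs, 0 were called under every alternative run: other pseudocounts, other filters on low values, quantile and median scaling, the replicate block, and each library left out. The number of entries called over the whole table was 0 as reported (118 at an unadjusted p under 0.05), 1 with a pseudocount of 0.1, 1 with median scaling and 89 with the replicate block. With the replicate block it was also 60 with a pseudocount of 0.1, 174 with a pseudocount of 5, 45 with no filter on low values, 71 with a filter of 5 FPKM, 190 with quantile normalization and 40 with median scaling. With a library left out it ranged from 4 to 144, the highest without the B10- library of culture 1. Such fits compare 2 libraries with 1, take in the difference between cultures by construction, and assume that the lone library varies like the others.

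Snhg4 kept its direction in all of these, from -0.52 to -0.37 with a library left out, and Snhg12 from -0.59 to -0.04. The adjusted p of Snhg4 ranged from 0.217 to 1 and that of Snhg12 from 0.337 to 1 over the other alternatives. Small differences of Snhg3, Snhg6 and Malat1 reversed. Snhg3 was at -0.0091 with quantile normalization and -0.00090 with median scaling, Snhg6 at -0.15 and -0.014, and Malat1 at -0.34 with quantile normalization, with the same values with the replicate block. With quantile normalization 7 RNAs, against 3 as reported, had the same direction in both cultures. With a library left out the signs of Gas5 (-0.36 to 0.090), Snhg1 (-0.54 to 0.43), Snhg3 (-0.30 to 0.33), Snhg5 (-0.38 to 0.75), Snhg6 (-0.65 to 0.65), Snhg8 (-0.57 to 0.45), Malat1 (-0.92 to 0.95) and Neat1 (-0.18 to 0.17) turned. Beyond those constructions, the cause was not tested. The median difference of all entries shifted by -0.07 with quantile normalization and by -0.01 with median scaling.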
